A study of Mus musculus with 6 samples.

Results

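The solute carriers are the large superfamily of membrane proteins that move amino acids, sugars, nucleotides, ions, metals and vitamins across the plasma membrane and the membranes of organelles. The genes described here are those whose name starts with Slc and whose FPKM (fragments mapped to a gene, scaled by its length and by the library's total of mapped fragments) was at least 10 in any of the 6 libraries. Mitochondrial carriers of the Slc25 family and 9 named genes for monoamine, glucose, lactate and iron transport were left out. The rule was met by 32 genes, out of 346 genes with such a name and 17909 genes in the table. The levels themselves chose the members, so their levels and the differences between libraries are a description. Just inside the threshold lay Slc39a1 at a highest FPKM of 10.05, Slc30a7 at 10.9 and Slc43a1 at 11.1. Just outside it lay Slc35c2 at 9.76 and Slc31a2 at 9.12. Of the other 260 eligible genes, 149 stayed under an FPKM of 1 in every library.

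All libraries came from mouse embryos of C57BL/6xFVB background, from cells sorted with a Csf1r-iCre fate-mapping model, in which Cre recombinase driven by Csf1r marks cells of the early erythro-myeloid progenitor (EMP) lineage and their progeny. Fetal liver at E11.5 gave EMPs, mast cell progenitors (MCPs) and cells labelled macrophages (MAC). The labels also call the liver MCP library LiB7_pos and the EMP library LiB7_neg. Limbs gave MCPs of E11.5 and of E14.5, and skin at E16.5 gave cells titled MCPs and described as mast cells. Each group is 1 library, so there is no replicate error and no test, and whether embryos were pooled is not given in the sources used here. The 6 values of a gene are listed below in the order EMP, MCP and MAC of the liver, the younger and the older limb MCPs, and skin.

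Most carriers work by coupling to a gradient of sodium or protons or by exchanging a substrate for another. Mast cells are secretory cells that fill granules with histamine, proteases and sulfated proteoglycan, so their carriers include those that take up amino acids, those that feed nucleotide sugars to the Golgi, and those that handle organic cations. In bulk RNA a smaller share of cells with a transcript and less transcript per cell cannot be told apart.

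The libraries differed in ways that bear on every carrier. Depth estimated from the steps between FPKM values ran from 8600000 to 12200000 mapped fragments, which gives 172 to 244 fragments to a 2 kb transcript at an FPKM of 10, and an FPKM of 0.123 to 0.174 to 3 fragments. The FPKM values of skin summed to 84036, against 140044 to 169289 in the others, and 5675 genes reached an FPKM of 1 in skin, against 8270 to 8754. In skin 6469 genes were listed at 0, against 2972 to 4918 in the others, so a 0 is more common there over all genes. The 9 mast cell markers summed to 129 in EMPs and 66.2 in the macrophage-labelled library, 374 and 783 in liver and E11.5 limb MCPs, 3613 in E14.5 limb MCPs and 15644 in skin. Neutrophil markers (9 genes) summed to 10356 in EMPs and 7825 in the macrophage-labelled library, 1041 and 484 in liver and E11.5 limb MCPs, and at most 8.3 in the later libraries. Eosinophil markers (8 genes) summed to 10021 in the macrophage-labelled library and at most 268 elsewhere. The 7 macrophage markers in the table summed to 84.2 there and to at most 22.9 elsewhere. Erythroid markers (12 genes) peaked in liver MCPs at 315, and megakaryocyte markers (6 genes) there at 63.3. The 6 connective tissue markers summed to 63.4 in E14.5 limb MCPs and 12.1 in skin, and to at most 0.62 elsewhere. Hepatocyte, keratinocyte, endothelial and muscle markers summed to at most 3.14, 0.5, 16.95 and 5.63.

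For 4 members with wide differences between libraries, the bases before the transcription start are shown, so that a reader can see what stands there. RefSeq start sites on GRCm38.p6 were matched for 23 of the 32 members. The sequences run 5′ to 3′ along the strand of the gene and end at the base before the start. Capitals mark a GC box (GGGCGG), a RUNX site (TGTGGT) or a GATA site (AGATAA or TGATAA, or either with G as its last base), each searched on both strands. The windows are chr17:12507705-12507954 for Slc22a3 (minus strand), chr1:131962665-131962914 for Slc45a3 (plus), chr4:103215177-103215426 for Slc35d1 (minus) and chr1:96872172-96872421 for Slco4c1 (minus). No annotated exon lies in the first 3 windows, and an exon of the noncoding gene Panct2 lies in the last.
Slc22a3: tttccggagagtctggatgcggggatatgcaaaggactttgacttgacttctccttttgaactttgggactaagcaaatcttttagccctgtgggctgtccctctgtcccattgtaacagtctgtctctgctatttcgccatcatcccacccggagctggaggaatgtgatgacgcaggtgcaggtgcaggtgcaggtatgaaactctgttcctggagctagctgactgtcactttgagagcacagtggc
Slc45a3: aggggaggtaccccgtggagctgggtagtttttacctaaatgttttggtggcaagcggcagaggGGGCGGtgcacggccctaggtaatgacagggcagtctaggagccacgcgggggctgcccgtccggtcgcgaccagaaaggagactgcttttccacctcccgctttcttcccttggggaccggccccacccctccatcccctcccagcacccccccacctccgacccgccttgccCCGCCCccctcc
Slc35d1: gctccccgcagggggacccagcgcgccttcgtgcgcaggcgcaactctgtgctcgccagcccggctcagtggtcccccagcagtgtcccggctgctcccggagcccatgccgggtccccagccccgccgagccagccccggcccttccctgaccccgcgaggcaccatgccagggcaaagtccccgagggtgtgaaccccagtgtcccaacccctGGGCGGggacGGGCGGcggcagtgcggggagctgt
Slco4c1: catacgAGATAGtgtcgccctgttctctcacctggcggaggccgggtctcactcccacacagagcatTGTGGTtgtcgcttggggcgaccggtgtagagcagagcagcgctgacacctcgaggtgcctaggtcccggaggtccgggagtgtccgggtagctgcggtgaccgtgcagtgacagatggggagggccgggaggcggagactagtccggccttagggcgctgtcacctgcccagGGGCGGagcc
A GC box stood in 16 of the 23 member promoters (69.6%), against 60.3% of 3102 promoters of genes that reach 10 FPKM in any library and 32.9% of all 27025 promoters of this length. A GATA site stood in 5 (21.7%, against 17.6% and 27.1%), in Slc24a5, Slc30a7, Slc35c1, Slc39a10 and Slco4c1. The E-box CACGTG stood in Slc41a3 and Slc43a1 (8.7%, against 9.45% and 6.05%), and the M-box (TCATGTG or TCACGTG) in Slc24a5 (4.35%, against 7.03% and 6.26%). A RUNX site stood in Slc3a2 and Slco4c1 (8.7%, against 10.8% and 14.2%). The C/EBP-ATF element TGATGNAAN was in none of the 23 windows, and in 1.68% and 3.51% of the others. The E-box lies within the second M-box sequence, so these matches can coincide. These are matches of letters and not binding. A single RefSeq start was kept per gene, and any other start was not searched. Some windows do not adjoin the annotated gene start. That of Slc41a3 begins at 90618996 inside the gene, which starts at 90604725. That of Slc39a10 (minus strand) begins at 46925777, while the annotated gene ends at 46892852. The median GC content of the member promoters was 62.4%, with a range of 35.6% to 75.2%, against 60% for promoters of genes at an FPKM of at least 10.

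Together the members summed to an FPKM of 528, 371, 357, 591, 803 and 720. As a share of all FPKM this was 0.312%, 0.242%, 0.222%, 0.422%, 0.538% and 0.857%, lowest in the macrophage-labelled library and highest in skin. The most abundant member was Slc35a4 in the 3 liver libraries, Slc22a3 in E11.5 limb MCPs, and Slc7a5 in skin and the E14.5 limb. Of the members, 7 were at 10 or more in all 6 libraries at once, and 10 were so in a single library only. The ratio of a gene's highest to its lowest value was at most 2 for 5 of 32 members (15.6%), against 6.4% of the 4016 genes at 10 or more in any library. It was above 10, or involved a 0, for 13 (40.6%, against 37.7%). Without skin these shares were 25% against 32.8% and 25% against 12.7%.

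**Figure D1:**
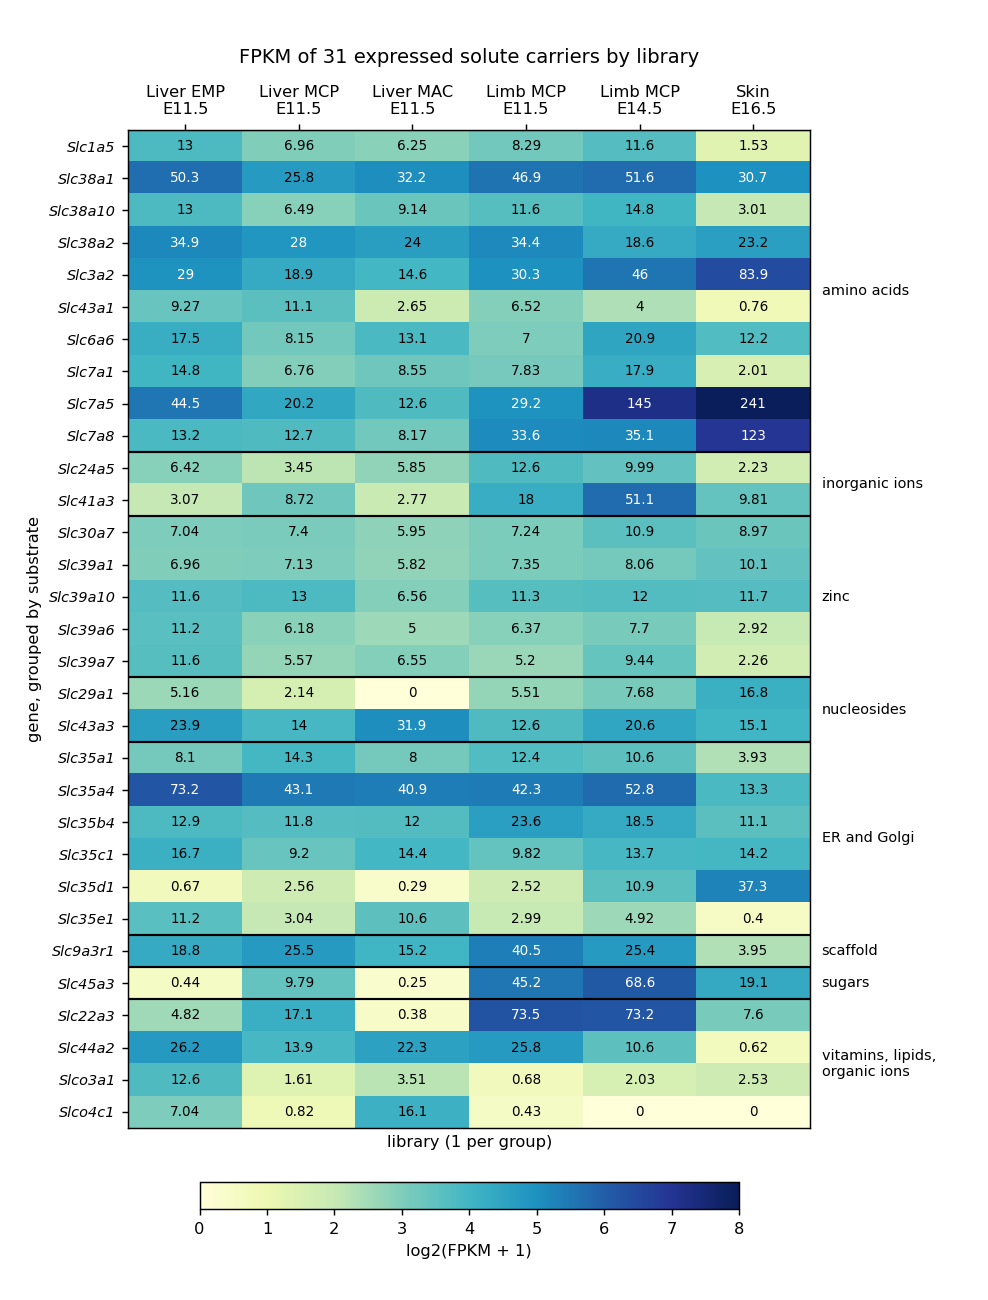
FPKM of 31 members (rows, grouped by substrate) in the 6 libraries (columns, 1 library per group), with FPKM as the printed number and log2(FPKM + 1) from 0 to 8 as colour. Slc7a5 reaches 241 in skin, Slc22a3 and Slc45a3 are high in the limb libraries, and Slco4c1 is highest in the macrophage-labelled library at 16.1.

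Amino acid carriers were the largest group, with 10 members. Their summed FPKM was 240, 145, 131, 216, 365 and 521. Slc3a2, on chromosome 19 at 8706882 to 8723369, encodes the heavy chain of CD98 (4F2hc), a single-pass glycoprotein that carries light chains to the cell surface. It read 29.0, 18.85, 14.6, 30.3, 46.0 and 83.9. Slc7a5, on chromosome 8 at 121881150 to 121907694, encodes LAT1, the light chain that exchanges large neutral amino acids such as leucine, and also carries histidine, the precursor of histamine. It read 44.5, 20.2, 12.6, 29.2, 145 and 241. Slc7a8, on chromosome 14 at 54722209 to 54781946, encodes LAT2, a second light chain for neutral amino acids. It read 13.2, 12.7, 8.17, 33.6, 35.1 and 123. All 3 genes had their lowest value in the macrophage-labelled library and their highest in skin.

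The 2 light chains parted in when they were high. Slc7a8 was 2.64-fold higher in limb than in liver MCPs at E11.5, 1.05-fold higher in the limb at E14.5 than at E11.5, and 3.50-fold higher in skin than in E14.5 limb MCPs. Slc7a5 was 1.45-fold, 4.96-fold and 1.66-fold higher in the same comparisons. The ratio of Slc7a5 to Slc7a8 was 3.37 in EMPs, 1.59 and 1.54 in the other liver libraries, 0.871 in E11.5 limb MCPs, 4.12 in those at E14.5 and 1.96 in skin. The summed FPKM of both light chains was 1.99 times that of the heavy chain in EMPs, 1.74 and 1.42 times in the other liver libraries, 2.07 and 3.91 times in the limb and 4.34 times in skin. Heavy and light chains together made up 9.89% to 16.4% of the members' summed FPKM in the 4 libraries of E11.5, 28.1% in E14.5 limb MCPs and 62.2% in skin. The other light chains that pair with Slc3a2 stayed under 10. Slc7a6 read 7.71, 5.52, 3.37, 4.14, 2.50 and 0, Slc7a7 at most 2.45, and Slc7a11, the cystine and glutamate exchanger, at most 1.82.

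The sum of the mast cell markers was higher in the limb at E14.5 than at E11.5 and higher again in skin, as Slc7a5 and Slc3a2 were. Slc7a8 was nearly equal on the limb days, at 33.6 and 35.1, and higher in skin. Most of the marker sum in skin was Cpa3, at 13494. Kit and Gata2 were lower in skin than in E14.5 limb MCPs (239 against 284, and 0 against 142), and the other listed mast cell markers were higher. Connective tissue markers summed to 0.62, 63.4 and 12.1 in these 3 libraries. In skin all 6 connective tissue markers were above 0, and in E14.5 limb MCPs all 6 were at 1 or more. The part of either marker list in the values of these carriers was not tested. Of the connective tissue markers, Col1a1, a fibrillar collagen chain, read 0.1 at E11.5 and 17.6 at E14.5 in the limb, and 3.65 in skin.

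**Figure D2:**
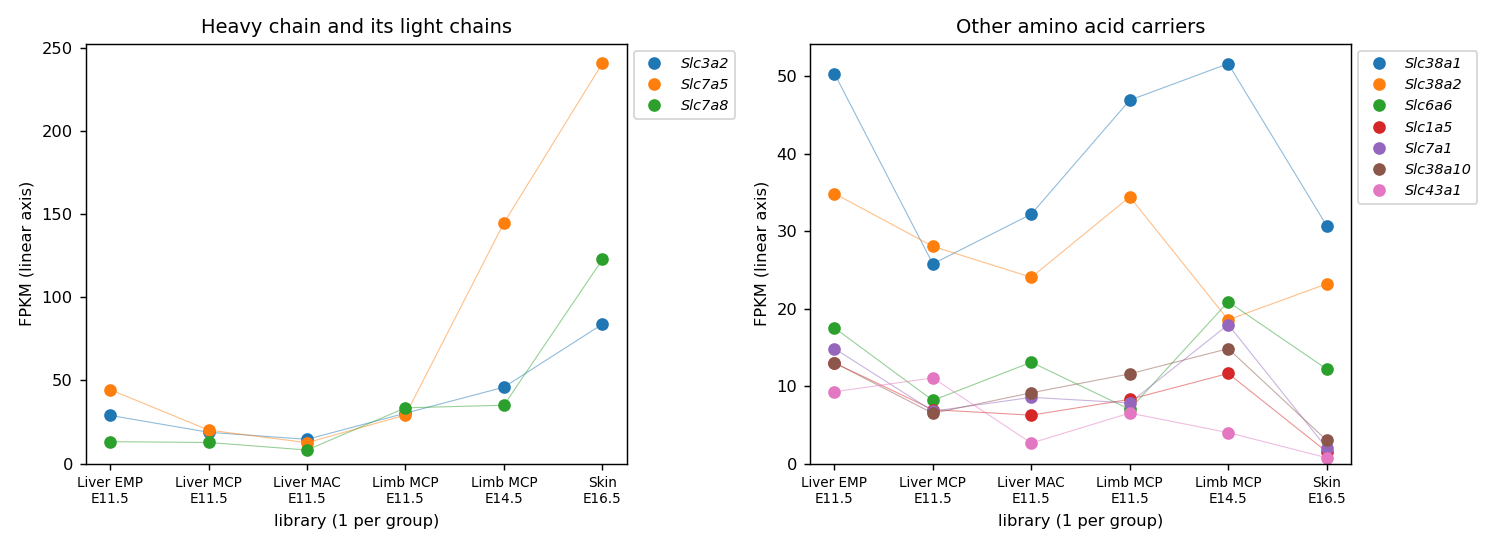
FPKM (vertical, linear axis from 0) of the CD98 heavy chain gene and its 2 abundant light chains (left) and of the other 7 amino acid carriers (right) in the 6 libraries (horizontal), each point 1 library, with thin lines only to guide the eye. Slc7a5, Slc7a8 and Slc3a2 are highest in skin at 241, 123 and 83.9, where Slc1a5, Slc7a1, Slc38a10 and Slc43a1 are lowest.

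The remaining amino acid carriers followed other patterns. Slc38a1 and Slc38a2, sodium-coupled carriers of glutamine and other small neutral amino acids, were high throughout. Slc38a1 read 50.3, 25.8, 32.2, 46.9, 51.6 and 30.7, and Slc38a2 read 34.9, 28.0, 24.0, 34.4, 18.6 and 23.2. The highest value was 2.002 times the lowest for Slc38a1 and 1.88 times for Slc38a2. Slc1a5, the glutamine carrier ASCT2, read 13, 6.96, 6.25, 8.29, 11.6 and 1.53. Slc7a1, the carrier of arginine and lysine, read 14.85, 6.76, 8.55, 7.83, 17.9 and 2.01. Both were lowest in skin, and were 7.6-fold and 8.93-fold lower there than in E14.5 limb MCPs. Slc6a6, the taurine transporter, read 17.5, 8.15, 13.1, 7, 20.9 and 12.2, with no value below 7. Slc38a10 read 13.01, 6.49, 9.14, 11.6, 14.8 and 3.01. Slc43a1, the neutral amino acid carrier LAT3, was highest in liver MCPs and read 9.27, 11.1, 2.65, 6.52, 4 and 0.76.

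Genes around these carriers were counted from lists, and the share of all genes past the same 2-fold rule is the background for those counts. In liver MCPs against EMPs it was 8.52% higher and 15.9% lower, in the macrophage-labelled library against EMPs 5.85% and 10.5%, and in liver MCPs against macrophage-labelled cells 17.9% and 15.7%. In limb against liver MCPs it was 8% and 14.1%, in the limb between its days 8.42% and 6.23%, and in skin against the limb 5.65% and 62.7%. Lower counts in skin therefore meet a background in which most genes are lower.

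The amino acid response list holds genes that ATF4 controls, serine synthesis enzymes among them. Of 19 genes, 5 were at 10 or more in skin or in the limb at E14.5, and 4 of these were at least 2-fold lower in skin and none higher, beside 62.7% and 5.65% of all genes. Shmt2, a mitochondrial enzyme of the serine to glycine step, read 59.6 in E14.5 limb MCPs and 1.81 in skin, and Phgdh, which starts serine synthesis, 15.8 and 0.35. Between the limb at E14.5 and E11.5, 1 gene, Ddit3, was at least 2-fold higher (15.6 against 4.88) and none lower. In liver MCPs against EMPs 2 were lower and none higher, and in the macrophage-labelled library against EMPs 4 were lower and none higher. In liver MCPs 2 were higher and none lower than in macrophage-labelled cells, and in limb against liver MCPs 1 was lower and none higher. Of 29 genes for amino acid sensing by mTORC1, 9 or 10 could be compared in each pair. At most 1 differed by 2-fold in any comparison without skin, and 6 of 9 were lower in skin than in E14.5 limb MCPs, near the 62.7% of all genes. Lamtor2 read 10.7 against 0.6 there, and Sec13 33.9 against 7.15.

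Carriers of organic cations, sugars and magnesium were highest in the limb libraries. Slc22a3, on chromosome 17 at 12418960 to 12507704, encodes the organic cation transporter OCT3, which carries histamine and other monoamines in both directions. It read 4.82, 17.1, 0.38, 73.5, 73.2 and 7.6. The limb values of both days were nearly equal. They lay 9.64-fold above skin at E14.5 and 4.29-fold above liver MCPs at E11.5. Slc45a3, on chromosome 1 at 131962967 to 131982969, encodes a member of the sugar carrier family SLC45. It read 0.44, 9.79, 0.25, 45.2, 68.6 and 19.1. Its 2 lowest values were those of the liver libraries that are not labelled MCP, and the ratio of highest to lowest was 274, the widest of the 30 members with no value of 0. Slc41a3, on chromosome 6 at 90604725 to 90646412, encodes a magnesium carrier of mitochondria. It read 3.07, 8.72, 2.77, 18, 51.1 and 9.81. All 3 genes were higher in liver MCPs than in EMPs, higher again in the limb, and lower in skin. The direction from limb to skin held when values were scaled to equal sums (TPM) or by median-of-ratios size factors, with log2 differences of −2.43 and −2.04 for Slc22a3, −1.01 and −0.67 for Slc45a3, and −1.54 and −1.18 for Slc41a3. The exons of Slc22a3 overlap those of Plg, which read at most 0.92. In the monoamine group that the rule leaves out, Slc18a2 and Slc6a4 were highest in skin instead, at 42.65 and 740 FPKM.

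Slco4c1 and Slco3a1, of the organic anion family, were each highest in a liver library that is not labelled MCP. Slco4c1, on chromosome 1 at 96816270 to 96872171, read 7.04, 0.82, 16.1, 0.43, 0 and 0. It was highest in the macrophage-labelled library and was listed at 0 in E14.5 limb MCPs and in skin. Slco3a1 read 12.6, 1.61, 3.51, 0.68, 2.03 and 2.53, and was highest in EMPs. Slc44a2, of another family, encodes a choline transporter-like protein of the plasma membrane and mitochondria. It read 26.2, 13.9, 22.3, 25.8, 10.6 and 0.62. It was 17.1-fold lower in skin than in E14.5 limb MCPs. The EMP and macrophage-labelled libraries, where Slco4c1 was highest, also held the most neutrophil marker signal (10356 and 7825, against at most 1041 elsewhere). In E14.5 limb MCPs and skin, where Slco4c1 was listed at 0, the neutrophil genes Ltf, Camp, S100a8 and S100a9 were at 0 as well. The other listed neutrophil markers were above 0 in both, with Mpo at 1.25 and 1.03 and Ctsg at 0.18 and 6.93. The part of granulocyte RNA in Slco4c1 and Slco3a1 was not tested. Eosinophil markers, at 10021 in the macrophage-labelled library, also move with Slco4c1. So do macrophage markers, at 84.2 in that library and 22.9 in EMPs, against at most 14.7 elsewhere. The part of either list was not tested.

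**Figure D3:**
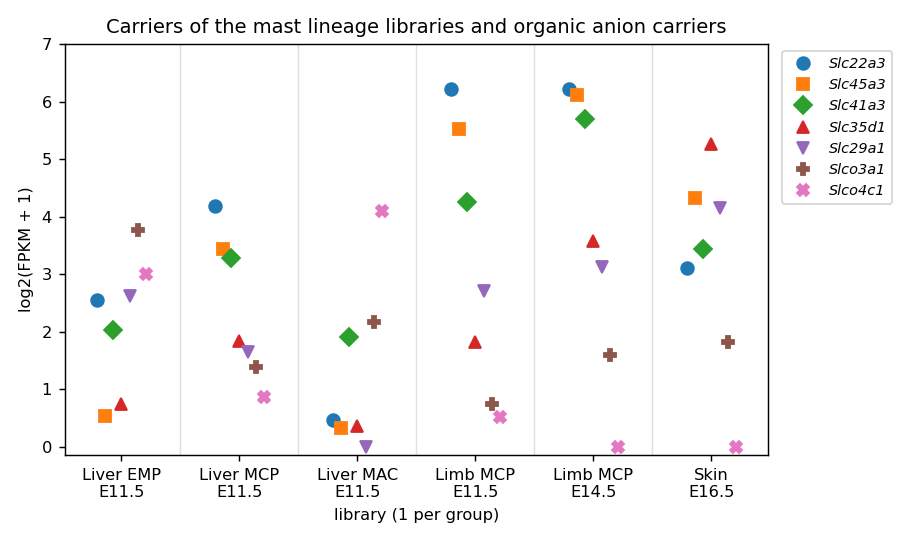
log2(FPKM + 1) (vertical) of 7 carriers in the 6 libraries (horizontal, 1 library per group), with points offset sideways for legibility. Slc22a3, Slc45a3 and Slc41a3 stand highest in a limb library, Slc35d1 and Slc29a1 in skin, and Slco3a1 and Slco4c1 in EMPs and the macrophage-labelled library.

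The Slc35 family and its relatives carry nucleotide sugars from the cytosol into the endoplasmic reticulum and Golgi, where glycan chains are built. Its 6 members summed to 123, 84.0, 86.2, 93.7, 111 and 80.2. Slc35d1, on chromosome 4 at 103170649 to 103215164, carries UDP-glucuronic acid and UDP-N-acetylgalactosamine, the building blocks of chondroitin and other glycosaminoglycans. It read 0.67, 2.56, 0.29, 2.52, 10.9 and 37.3. Liver and E11.5 limb MCPs did not differ in it by more than 1.02 times, while E14.5 limb MCPs were 4.32-fold above those at E11.5 and skin was 3.43-fold above these. Slc35b4, a carrier of UDP-xylose and UDP-N-acetylglucosamine, read 12.9, 11.8, 12, 23.6, 18.5 and 11.1, with both limb libraries highest. Slc35a1, the CMP-sialic acid carrier, read 8.10, 14.3, 8, 12.4, 10.6 and 3.93. Slc35c1, the GDP-fucose carrier, stayed between 9.20 and 16.7. Slc35a4 was the most abundant of the group in every library but skin, where Slc35d1 and Slc35c1 were higher. It read 73.2, 43.1, 40.9, 42.3, 52.8 and 13.3, and the gene Apbb3, whose exons overlap it, read at most 0.93. Slc35e1, a family member of unassigned substrate, read 11.2, 3.04, 10.6, 2.99, 4.92 and 0.40, with the EMP and macrophage-labelled libraries highest.

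A list of 29 proteoglycan genes holds enzymes that build and sulfate the chains, which use the sugars these carriers deliver, and the core protein gene Srgn. In limb against liver MCPs at E11.5, 5 of 8 at 10 or more were at least 2-fold higher and none lower, beside 8% and 14.1% of all genes. Srgn, named after its values were seen, was 1 of the 5, at 592 against 227. In the limb at E14.5 against E11.5 it was 4 of 9 and none, beside 8.42% and 6.23%. Hs3st1, a heparan sulfate sulfotransferase, read 2.11 in liver MCPs and 18.8, 106 and 27.8 in the limb and skin, and Ndst2, which modifies heparin chains, 8.51, 26.9, 112 and 77.9. In skin against E14.5 limb MCPs no gene of the list was 2-fold higher and 5 of 9 were lower, beside 5.65% and 62.7% of all genes. Papss2, which makes the sulfate donor, and Ext2, a chain polymerase, were both listed at 0 in skin, as 6469 genes were. Among the liver libraries 1 was higher and 1 lower in MCPs than in EMPs, none differed between macrophage-labelled cells and EMPs, and 1 was higher and 2 lower in MCPs than in macrophage-labelled cells.

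Among the 5 zinc carriers, 3 varied little. Slc30a7, which loads zinc into the Golgi, ranged from 5.95 to 10.9, Slc39a1, an importer of the plasma membrane, from 5.82 to 10.05, and Slc39a10, another importer, from 6.56 to 13.03. All 3 were lowest in the macrophage-labelled library, and their highest value was at most 1.99 times the lowest. Slc39a6 read 11.2, 6.18, 5, 6.37, 7.70 and 2.92, and Slc39a7, which releases zinc from the endoplasmic reticulum, 11.6, 5.57, 6.55, 5.20, 9.44 and 2.26. These 2 were highest in EMPs and lowest in skin. Of the metallothionein and zinc response genes in the table (3), Mt1 read 45.9, 36.6, 18.2, 25.2, 16.46 and 5.08. Mt2 read 13.2 in liver MCPs and at most 2.75 elsewhere. At most 2 genes of this list, Mt1 and Mt2, were at 10 or more in any pair, so its counts rest on 1 or 2 genes. At 2-fold, 1 was higher and none lower in liver MCPs against EMPs and against the macrophage-labelled library (8.52% and 17.9% of all genes higher). None was higher and 1 lower in the macrophage-labelled library against EMPs (10.5% of all genes lower). The same held in limb against liver MCPs (14.1%) and in skin against limb (62.7%). None differed between the 2 limb days.

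The nucleoside and nucleobase carriers were 2 genes. Slc29a1, the equilibrative nucleoside transporter ENT1, on chromosome 17 at 45585200 to 45599606, read 5.16, 2.14, 0, 5.51, 7.68 and 16.8, and was highest in skin and listed at 0 in the macrophage-labelled library. Slc43a3, a purine nucleobase carrier, read 23.9, 13.96, 31.9, 12.6, 20.6 and 15.1, with the macrophage-labelled library highest. Among ion carriers, Slc24a5, a sodium-calcium exchanger known from pigment cells, read 6.42, 3.45, 5.85, 12.6, 9.99 and 2.23, with both limb libraries highest, and its exons overlap those of Myef2, which read 2.62 to 11.8. Slc9a3r1 encodes a scaffold protein, NHERF1, and not a carrier. It read 18.8, 25.5, 15.2, 40.5, 25.4 and 3.95.

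The list of ion pumps and transporter partner proteins had 13 genes in the table, with calcium and copper pumps beside the sodium pump. The sodium pump beta subunit Atp1b2 read 3.59, 38.6, 0.24, 31.7, 2.26 and 0.30, and was high in MCPs of E11.5. Of the genes at 10 or more, 1 was at least 2-fold higher and 2 lower in liver MCPs than in EMPs. The 2 lower genes were the calcium pumps Atp2a2 (29.47 against 73.05) and Atp2a3 (4.67 against 11.11). Both also read lower in the macrophage-labelled library, at 34.31 and 4.18. The corresponding counts were 0 and 2 for the macrophage-labelled library against EMPs, 1 and 0 for liver MCPs against it, 0 and 0 for limb against liver, 1 and 2 for the limb at E14.5 against E11.5, and 0 and 4 of 6 for skin against limb, beside 5.65% and 62.7% of all genes. Glutathione and thiol defence genes (12 in the table) gave 1 higher and 2 lower in liver MCPs against EMPs. In liver MCPs against the macrophage-labelled library it was 3 and 1 of 7 (17.9% and 15.7% of all genes). In skin against E14.5 limb MCPs it was 0 and 5 of 6 (5.65% and 62.7%). None differed by 2-fold in the other 3 comparisons. Gsr, glutathione reductase, read 18.7 in liver MCPs against 57.9 in EMPs, and Prdx2 0.38 in skin against 19.6 in E14.5 limb MCPs.

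Each pair of libraries was then compared as the difference of log2(FPKM + 1), and a gene was called at a difference of 2, a 4-fold change on this scale, if the FPKM of 1 of the 2 libraries reached 10. The same rule over all genes gives a background share for the FPKM values as deposited. It is printed beside each such count, and nothing is read from it, because the levels chose the members. Comparisons that share a library are not independent. Medians are given for all 32 members beside those of the 4016 genes that reach 10 in any library.

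In liver MCPs most members read lower than in EMPs. No member was called higher (background 1.78%) and 1 was called lower (background 3.09%), out of 23 at 10 or more in either library. That gene was Slco3a1, at 1.61 against 12.6. At 2-fold, 1 member was higher (Slc22a3, background 8.52%) and 5 were lower (Slc6a6, Slc7a1, Slc7a5, Slc35e1 and Slco3a1, background 15.9%). Slc45a3, under 10 in both, read 9.79 against 0.44. The median was −0.73 for the members and −0.12 for all genes. Of 32 members 22 were lower, and 12 stood above the median of all genes. The members' median was −0.62 and −0.68 under TPM and median-of-ratios scaling.

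The macrophage-labelled library against EMPs gave no call among 22 members (background 2.39% higher and 0.661% lower). At 2-fold Slco4c1 was higher (5.85%), and Slc39a6, Slco3a1 and Slc7a5 were lower (10.5%). Of 32 members 29 were lower, with a median of −0.43 beside −0.25 over all genes, and 13 stood above this median of all genes. Under median-of-ratios scaling 20 were lower, with a median of −0.23.

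The comparison of MCPs with macrophage-labelled cells in the liver gave 1 call in each direction among 19 members (background 3.72% higher and 5.99% lower). Slc22a3 read 17.1 against 0.38, and Slco4c1 0.82 against 16.1. At 2-fold Slc43a1 was also higher (17.9%), and Slc43a3 and Slc35e1 were also lower (15.7%). Slc45a3 read 9.79 against 0.25, under 10 in both. The median was 0.17 for the members and 0.14 for all genes, and −0.04 and −0.07 under median-of-ratios scaling. Under TPM the calls were 5 higher and 1 lower, and the share of all genes called was not computed under that scaling.

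Limb against liver MCPs of the same day gave 2 members called higher, Slc45a3 and Slc22a3 (background 1.18%), and none called lower (background 2.04%), among 18. At 2-fold Slc24a5 and Slc7a8 were also higher (8%), and none was lower (14.1%). Of all 32 members 20 were higher and 12 lower, with a median of 0.20 against −0.13 over all genes, and 25 stood above this median of all genes. Slc9a3r1 read 40.5 against 25.5, and Slc35b4 23.6 against 11.8.

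The E14.5 limb library against the E11.5 limb library gave 1 call, Slc7a5 (background 2.39% higher), and no lower call (background 1.75%), among 23 members. At 2-fold Slc35d1, Slc41a3, Slc6a6 and Slc7a1 were also higher (8.42%), and Slc44a2 was lower (6.23%). The median was 0.32 for the members and 0.08 for all genes. Of 32 members 22 were higher, and 20 stood above the median of all genes.

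Skin against E14.5 limb MCPs gave no member called higher (background 1.78%) and 6 called lower (background 33.4%), among 24. These were Slc22a3, Slc44a2, Slc7a1, Slc9a3r1, Slc1a5 and Slc41a3. The split of calls was 2 higher and 5 lower under TPM, and 3 higher and 1 lower under median-of-ratios scaling. The share of all genes called was not computed under these scalings. Under TPM the minimum of 10 and the pseudocount also act on lower genes. At 2-fold Slc7a8, Slc35d1 and Slc29a1 were higher (5.65%) and 10 members were lower (62.7%). The median over all genes was −1.33 in this pair, and −0.76 and −0.37 under TPM and median-of-ratios scaling. For the members it was −0.73, and 0.03 and 0.18 under these scalings, so their direction as a group depends on the scaling. Relative to the median over all genes, Slc7a8 stood 3.11 higher on the log2 scale, Slc35d1 3.02, Slc29a1 2.37, Slc3a2 2.19 and Slc7a5 2.06, while Slc22a3 stood at −1.78 and Slc44a2 at −1.51. All these 7 genes kept their direction under both scalings. The directions of Slc38a1, Slc6a6, Slc35b4, Slc43a3, Slc30a7 and Slc39a10 turned from lower to higher.

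**Figure D4:**
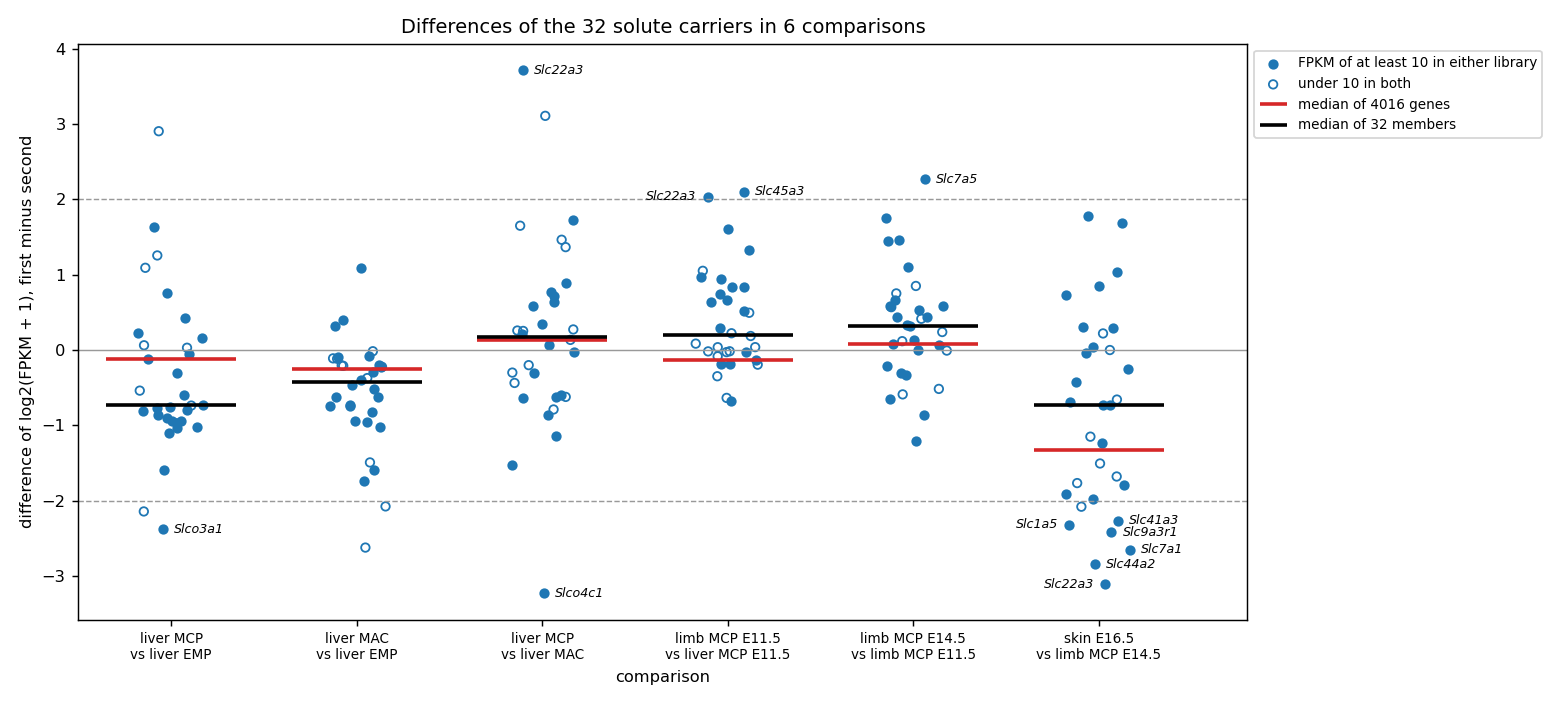
Difference of log2(FPKM + 1), first library minus second (vertical), of each of the 32 members in the 6 comparisons (horizontal), with the member median in black and the median of 4016 genes in red. Dashed lines mark the 4-fold rule, and the 1, 0, 2, 2, 1 and 6 members past it at 10 FPKM or more are named.

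By the library of the highest value, 9 members peaked in EMPs, 3 in liver MCPs, 3 in the macrophage-labelled library, 4 in E11.5 limb MCPs, 7 in those at E14.5 and 6 in skin. The shares were 28.1%, 9.38%, 9.38%, 12.5%, 21.9% and 18.8%, against 29.1%, 23.7%, 14.8%, 11.7%, 13.5% and 7.17% of the 4016 genes. These counts depended on the scaling and on the skin library. Under either scaling 5 members peaked in EMPs and 12 in skin, under median-of-ratios scaling 4 peaked in the limb at E14.5, and without skin 13 did. By the lowest value, 14 members were lowest in skin (43.8%, against 71.5%) and 11 in the macrophage-labelled library (34.4%, against 8.67%). Ties went to the earlier library in the listed order, for members and for all genes. Slco4c1, at 0 in E14.5 limb MCPs and in skin, therefore counted for the limb. The counts by lowest value were not rescaled. Along the order of liver MCPs, the limb on its first and second day and skin, 4 members were higher at every step with at least 4-fold between the ends, namely Slc3a2, Slc7a5, Slc7a8 and Slc29a1 (12.5%, against 1.94% of the 4016 genes). Slc43a1 alone was lower at every step with at least 4-fold between the ends (3.12%, against 8.52%). Slc35a1 was also lower at every step, at 14.3, 12.4, 10.6 and 3.93, but by less than 4-fold. Under TPM or median-of-ratios scaling 4 members again met the rule for higher values. Slc35d1 then took the place of Slc7a8, whose limb values of the 2 days lie close together. The shares of all genes that met these rules moved too, to 3.14% and 3.61% for higher values and to 6.45% and 4.21% for lower values.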

How the data were processed

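RNA-seq was done on sorted cells in 6 libraries, 1 per group. The authors deposited FPKM values with 2 decimals. Per the submitters' processing notes the tools were RSEM and Bowtie2 and the build was mm10 (GRCm38). Tool versions and strand use: not given in the sources used here. Of 17913 rows, 4 with a repeated name were dropped. Without strand, overlapping genes cannot be told apart, and 12 members overlap an exon of another gene in GENCODE M21. Depth was estimated as the library total that brings implied fragments of 1409 genes with a single transcript of 600 to 2500 bases closest to whole numbers. At that total 76.2% to 78.8% of usable values came within 0.2 of whole fragments, where chance gives 40%. The method was tested on simulated data. Intervals and floors cover counting error only.

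Differences are of log2(FPKM + 1), with no test since each group is 1 library, and folds are ratios of FPKM. Genes named are the members called at 4-fold, for each comparison the 5 members farthest apart in either direction, the highest and the widest member per substrate group, the genes nearest to the threshold (up to 3 on each side), Slc3a2 with its light chains, and the 2 largest differences per pathway list. Other members are given for completeness, and Slc18a2, Slc6a4 and single marker genes were chosen after their values were seen. The members, 9 substrate lists, 6 pathway lists, 11 marker lists and rules were chosen with earlier results of these data known, and the GC box and RUNX motifs were added after member values had been seen. Alternatives were pseudocounts of 0.1 and 5, no filter or an FPKM of at least 30, rescaling to equal sums (TPM), division by size factors (median-of-ratios, from 4580 genes), and members at 5 or 20 FPKM. Computing used Python 3.11.15 with pandas 2.3.3 and numpy 2.4.6. A few genes, 1 member among them, entered all counts, sums and medians but are not reported here by name.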

Additional observations from a re-analysis of the deposited data

How the results depend on the processing

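No paired analysis was possible because each group is 1 library. Depth limits values near 0, and differences carry no replicate error. The number of members was 32, and 66 and 15 at 5 and 20 FPKM. Calls of liver MCPs against EMPs (1) were 0 with a pseudocount of 5 or at 30 FPKM, and 3 with no filter or TPM. Those of the macrophage-labelled library against EMPs (0) were 2 with no filter or TPM, and those of liver MCPs against it (2) were 1 with a pseudocount of 5, 0 at 30 FPKM and 6 under TPM. Limb against liver (2) gave 0 with a pseudocount of 5, the limb at E14.5 against E11.5 (1) gave 2 with a pseudocount of 0.1, and skin against limb (6) gave 1 with a pseudocount of 5 and 2 at 30 FPKM. The share of all genes called was not computed under these alternatives. The members' median was −0.51 (pseudocount 5) and −0.62 (TPM) for liver MCPs against EMPs, −0.58 (pseudocount 0.1) and −0.23 (median-of-ratios) for the macrophage-labelled library against EMPs, and 0.36 (TPM) and 0.32 (median-of-ratios) for limb against liver. It reversed to −0.0396 (median-of-ratios) for liver MCPs against the macrophage-labelled library, and to 0.0265 (TPM) and 0.18 (median-of-ratios) for skin against limb, where a pseudocount of 5 gave −0.62. Members highest in EMPs (9) were 5 under either scaling, those highest in the E14.5 limb (7) were 4 under median-of-ratios scaling and 13 without skin, and those highest in skin (6) were 12 under either scaling. TPM values are larger, so the minimum of 10 and the pseudocount act on lower genes, and a stricter filter compares fewer genes. For the others the cause was not tested.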

Other observations

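Several solute carriers below the threshold of 10 FPKM also differed widely between libraries, and were chosen after their values were seen. Values follow the order EMP, MCP and MAC of the liver, limb at E11.5, limb at E14.5 and skin. Slc8b1, the mitochondrial sodium-calcium exchanger, read 8.03, 1.19, 7.73, 2, 1.56 and 0.06. Slc36a1, a lysosomal amino acid carrier, read 8.65, 0.26, 5.63, 4, 2.3 and 1.13. Both were highest in the liver libraries that are not labelled MCP. The zinc exporters Slc30a2 and Slc30a4 read 5.75 and 5.5 in the limb at E14.5 and at most 1.25 in any other library.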
